A study of Homo sapiens with 22 samples.

Results

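The SMAD proteins and the feedback genes of TGF-β signaling were examined as 10 genes by name, out of the 36859 genes of the deposited table. They were the receptor-activated SMAD2 and SMAD3, the common partner SMAD4, the inhibitory SMAD6 and SMAD7, the ubiquitin ligase SMURF2, the corepressors SKIL and TGIF1, the decoy receptor BAMBI and the membrane adaptor PMEPA1. All 10 were found in the table and all 10 passed the filter on low counts. RNA-seq was run on RPTEC, which are human renal proximal tubule epithelial cells immortalized with hTERT, as 22 libraries in 11 groups of 2 replicates. In medium with 2% serum, the groups were untreated WT cells, WT cells that received TGF-β at 10 ng per mL over 72 h, KO1 and KO2 (both clones lacking intact SETD2), and a line labelled KO2 rescue. In regular medium with 10% serum, they were Rescue1 and Rescue2, which are SETD2 rescue clones, and the WT line after lentiviral transduction of eGFP, SOX2, OCT2 or PRRX1. The untreated groups in 2% serum carry the time label 0 h, so the TGF-β group differed from WT in time as well as in ligand. Each KO and each rescue line is 1 clone, and SETD2, the enzyme that trimethylates histone H3 on lysine 36, was disrupted in exon 3 by CRISPR/Cas9 in the KO clones. The rescue clones carry full-length SETD2 on a lentiviral vector under blasticidin, and which KO clone each came from is not given in the sources used here. The transduced WT lines were selected in bulk with puromycin. The clones carry the names of the sample labels, while another listing of the study's values has KO1 and KO2 the other way round, so which clone a value named KO1 or KO2 belongs to is not certain. All groups share the immortalization with hTERT and growth under G418.

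TGF-β ligands bring together type II and type I serine/threonine kinase receptors, and the type I receptor phosphorylates SMAD2 and SMAD3. These join SMAD4, enter the nucleus and act on genes that carry SMAD-binding sequences, often together with other factors. Among their best known targets are genes that dampen the same pathway. SMAD7 and SMURF2 act on the receptor, SKIL and TGIF1 repress SMAD complexes on DNA, PMEPA1 holds receptor-activated SMADs away from the receptor, and SMAD6 acts mainly on the related BMP branch. In the proximal tubule the pathway is known for its part in fibrosis and in loss of epithelial features.

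SMAD complexes are known to bind short elements, so the sequences around the starts of the genes were searched for them. RefSeq starts were matched for all 10 genes, with 26 starts in all because SMAD2, SMAD3, SMAD7, TGIF1 and PMEPA1 have several, and each window runs from 250 bases before to 50 bases after a start (GRCh38.p14). Both strands were searched for CAGAC, the core of the SMAD-binding element, for GGCGCC, a GC-rich SMAD element, for TGANTCA, the AP-1 site, and for the palindrome of GTCT directly followed by AGAC. CAGAC was held by 16 of the 26 windows, in 7 of the 10 genes, and by 45.3% of the 35116 RefSeq windows. GGCGCC was held by 7 of the 26 windows, in 6 genes, and by 19.2% of all windows. TGANTCA was held by 4 of the 26, in 2 genes, and by 7.71% of all. Windows of the same gene can overlap, so a site can be counted more than once, and the window counts are not independent. The windows printed here are those of 3 genes that rose with TGF-β and of BAMBI, the gene at the lowest counts. PMEPA1 has 4 starts and SMAD7 has 3, and for each the window with the most CAGAC is shown, the others holding 0 or 1. Sequences are read 5′ to 3′ on the strand of the gene with every match in capitals.
PMEPA1 (chr20:57709966-57710265, minus strand): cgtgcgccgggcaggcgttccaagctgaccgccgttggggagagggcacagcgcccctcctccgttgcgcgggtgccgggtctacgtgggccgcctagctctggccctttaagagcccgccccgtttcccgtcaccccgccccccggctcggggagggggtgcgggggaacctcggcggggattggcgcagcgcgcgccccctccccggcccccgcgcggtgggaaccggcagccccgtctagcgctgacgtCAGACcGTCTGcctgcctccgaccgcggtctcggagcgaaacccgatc
SMAD7 (chr18:48950916-48951215, minus strand): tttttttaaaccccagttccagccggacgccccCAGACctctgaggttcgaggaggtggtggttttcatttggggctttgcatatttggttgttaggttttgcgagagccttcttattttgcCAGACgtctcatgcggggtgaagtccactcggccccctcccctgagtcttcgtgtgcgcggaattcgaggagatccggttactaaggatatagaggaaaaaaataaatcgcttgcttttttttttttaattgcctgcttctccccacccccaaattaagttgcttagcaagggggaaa
SKIL (chr3:170357465-170357764, plus strand): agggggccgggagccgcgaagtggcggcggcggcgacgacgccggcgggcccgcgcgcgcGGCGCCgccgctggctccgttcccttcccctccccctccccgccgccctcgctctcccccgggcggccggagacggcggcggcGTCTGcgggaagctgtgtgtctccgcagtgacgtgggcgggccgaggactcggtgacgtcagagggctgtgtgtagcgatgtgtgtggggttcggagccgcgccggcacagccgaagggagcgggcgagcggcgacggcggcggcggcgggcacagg
BAMBI (chr10:28677271-28677570, plus strand): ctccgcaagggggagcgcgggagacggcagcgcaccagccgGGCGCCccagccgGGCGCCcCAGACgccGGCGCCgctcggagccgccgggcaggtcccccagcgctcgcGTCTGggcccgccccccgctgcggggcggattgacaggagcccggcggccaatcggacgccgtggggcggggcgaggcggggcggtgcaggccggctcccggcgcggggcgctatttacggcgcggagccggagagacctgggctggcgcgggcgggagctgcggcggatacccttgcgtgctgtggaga
The PMEPA1 window shown held CAGAC and its reverse complement GTCTG 1 base apart, just after the start. The SMAD7 window shown held CAGAC at 2 places and the SKIL window held it at 1 place beside 1 GGCGCC. The BAMBI window held GGCGCC at 3 places, where 0.871% of all windows held it at 3 or more. It held CAGAC at 2 places, where 13.1% of all windows held it at 2 or more. None of these matches was tested for binding.

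The palindrome stood in 1 of the 26 windows, that of SMAD6, and in 0.202% of all windows. Within 2000 bases on either side of a start, a distance chosen after the sequences had been read, it lay near SMAD7, SMAD6 and PMEPA1, and near 2.26% of all 35116 starts. The stretches shown are 60 bases of hg38 with the palindrome in capitals, since it is known to be bound by SMAD3 and SMAD4.
SMAD7 element (chr18:48952192-48952251, minus strand): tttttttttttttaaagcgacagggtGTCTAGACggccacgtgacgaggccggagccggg
SMAD6 element (chr15:66702198-66702257, plus strand): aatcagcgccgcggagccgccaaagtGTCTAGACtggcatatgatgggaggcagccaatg
PMEPA1 element (chr20:57689305-57689364, minus strand): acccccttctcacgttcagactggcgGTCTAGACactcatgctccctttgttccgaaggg
The SMAD7 element lay at −1260 from the start at 48950965, in no annotated gene, and the SMAD6 element lay at −12 from the start at 66702236. The PMEPA1 element lay at 1348 from the start at 57690686, in the gene and outside its GENCODE exons, that is, in an intron. The presence of the letters is a description and was not related to the level of any gene here.

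Before the results, the libraries were checked against their labels. SETD2 (ENSG00000181555) had 1852 and 2061 normalized counts in WT, 1046 to 1130.0 in the 4 KO libraries, 9764 to 10445 in the 4 libraries of Rescue1 and Rescue2, and 2702 to 3128 in the 8 libraries of transduced WT cells. In the libraries labelled KO2 rescue it had 820 and 834, below KO2, which goes against the label, so the group is called labelled KO2 rescue throughout. POU2F2, the gene of OCT2, had 1251 and 1121 in the OCT2 line and 279 and 357 in the eGFP line. PRRX1 had 395 and 404 in the PRRX1 line and 0 in the eGFP line, and SOX2 was not analysed here. These 2 genes did differ between the labelled KO2 rescue and KO2. PRRX1 had 0 and 0.66 against 34.8 and 28.4 in KO2, and 0 in Rescue1 and Rescue2. POU2F2 had 655 and 764 against 2065.5 and 1617 in KO2, a change that did not pass. SETD2 RNA itself was lower in that line than in KO2, by 0.35 on the log2 scale (adjusted p = 0.00382 by limma's test). Whether SETD2 protein was restored in it was not tested. Of 12 kidney epithelial markers, PAX8, PAX2, KRT8, EPCAM and GGT1 were above 200 in every library, CDH1 and AQP1 had medians of 2.34 and 8.69, LRP2 did not exceed 2.29, and the markers of leukocytes, endothelium, pericytes, muscle and thick limb summed to 24.9 to 84.1. The 12 epithelial markers summed to 23618 and 25166 for WT, 22954 and 23261 after TGF-β, 13563 and 13600 in KO1, 18308 and 19319 in KO2 and 29696 to 32960 in the rescue clones, and their part in the results was not tested. The markers did not move together. KRT8 had means of 16033 in WT, 4255 in KO1 and 22424 and 24763 in the rescue clones, EPCAM went from 2907 in WT to 257 in KO1 and to 443 and 689 in the rescue clones, and PAX8 went from 3032 in WT to 6471 in KO1. Total normalized counts were 11674491 to 16758645 per library. The WT replicates stood further apart than those of any other group, with a median absolute log2 difference of 0.18 over 2347 well expressed genes against 0.06 to 0.16 in the other groups, and WT replicate 1 held more matrix RNA (COL1A1 at 11919 and TGFBI at 12164) than WT replicate 2 (532 and 896).

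**Figure D1:**
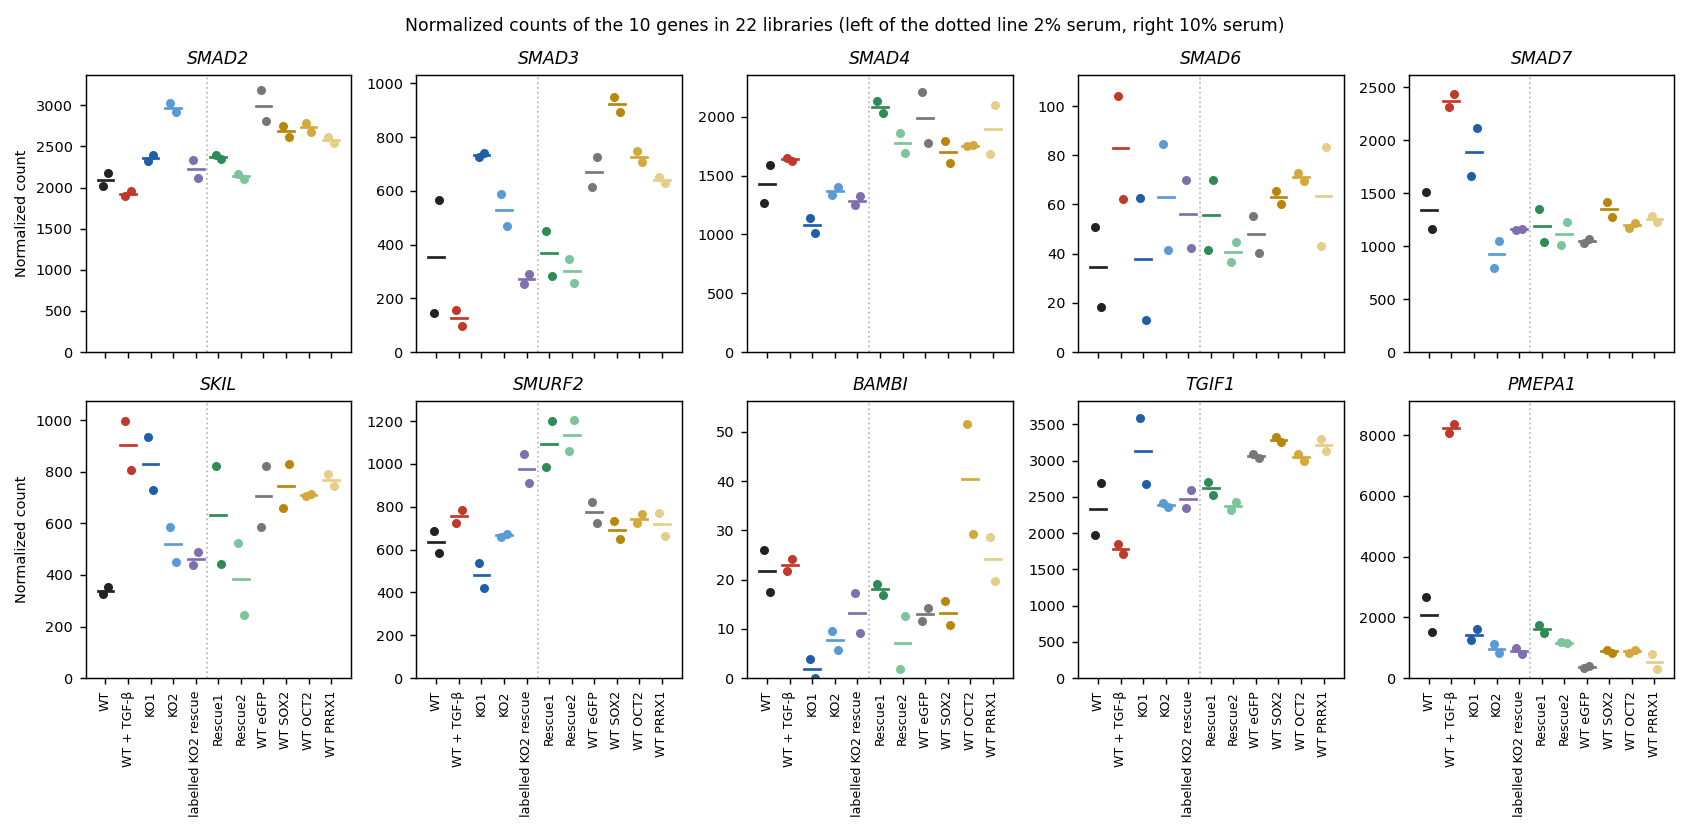
Normalized counts (vertical axes, from 0, a separate scale for each gene) of the 10 genes in the 11 groups. Points are libraries and bars are means of 2, with PMEPA1 at 8063 and 8378 after TGF-β against 287 to 2656 in all other libraries.

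How the feedback genes responded to the ligand itself was read from TGF-β against WT. PMEPA1, SKIL and SMAD7 rose, and no member passed the test downward. This is 3 of 10 members at an adjusted p under 0.05, where 17.7% of the 14585 genes tested passed, and 2 of 10 called, meaning also past a log2 change of 1, where 7.84% of all genes were called. The median log2 change of the members was 0.23 and that of all genes 2.3e-04. RNA was taken from whole cultures, so a change in the number of cells of a type and a change of RNA per cell cannot be told apart.

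PMEPA1 (ENSG00000124225, chromosome 20 from 57648392 to 57711536, minus strand) had 2656 and 1513 normalized counts in WT and 8063 and 8378 with TGF-β. Both treated libraries stood above every other library of the series, with the nearest at 2656. The log2 change was 2.03 (SE 0.35), 4.10-fold, with an adjusted p of 7.89e-04 by limma's moderated test. Leaving out WT replicate 1 gave 2.44, leaving out WT replicate 2 gave 1.63, and it passed both times.

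SMAD7 (ENSG00000101665, chromosome 18 from 48919853 to 48950965, minus strand) had 1512 and 1161 in WT and 2310 and 2436 with TGF-β. The groups did not overlap, and the treated libraries were again the highest of all 22. The log2 change was 0.84 (SE 0.17), 1.79-fold, with an adjusted p of 0.00232. It was under the fold needed for a call except without WT replicate 1, where it was 1.03.

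SKIL (ENSG00000136603, chromosome 3 from 170357342 to 170396835, plus strand), which encodes the corepressor SnoN, had 326 and 353 in WT and 997 and 808 with TGF-β. WT replicates lay close together here, and SKIL rose by 1.40 (SE 0.32) on the log2 scale, 2.64-fold, with an adjusted p of 0.0064. Without treated replicate 1 the change was 1.25 and the adjusted p 0.0632, so the call needs that library.

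The inhibitory SMAD6 (ENSG00000137834, chromosome 15 from 66702236 to 66782849, plus strand) had few counts, 50.9 and 18.3 in WT and 104 and 62.2 with TGF-β. Its log2 change of 1.36 (SE 0.66) did not pass (adjusted p = 0.197). SMURF2 (ENSG00000108854, chromosome 17 from 64542282 to 64662307, minus strand) had 688 and 583 in WT and 725 and 787 with TGF-β, a log2 change of 0.25 that did not pass (adjusted p = 0.288). BAMBI (ENSG00000095739, chromosome 10 from 28677510 to 28682932, plus strand), a pseudoreceptor without a kinase domain, had 26.01 and 17.5 in WT and 21.8 and 24.1 with TGF-β. It was the member with the fewest counts, under 52 in all 22 libraries.

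SMAD3 (ENSG00000166949, chromosome 15 from 67063763 to 67195173, plus strand) had 145 and 566 in the WT replicates and 156 and 95.5 with TGF-β. WT replicate 1 lay between the treated libraries, and WT replicate 2 far above them. The log2 change of −1.22 (SE 0.44) did not pass with both WT replicates (adjusted p = 0.0702). It was −2.20 without WT replicate 1 (adjusted p = 1.18e-04) and −0.24 without WT replicate 2 (adjusted p = 0.726), so the WT library chosen decides it.

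TGIF1 (ENSG00000177426, chromosome 18 from 3411608 to 3459978, plus strand) had 1977 and 2687 in WT and 1844 and 1717 with TGF-β. Its log2 change of −0.37 (adjusted p = 0.0666) became −0.59 without WT replicate 1 (adjusted p = 0.00469) and −0.15 without WT replicate 2. SMAD2 (ENSG00000175387, chromosome 18 from 47808957 to 47931146, minus strand) had 2018 and 2173 in WT and 1896 and 1958 with TGF-β, and SMAD4 (ENSG00000141646, chromosome 18 from 51028528 to 51085045, plus strand) had 1268 and 1589 against 1651 and 1629. Their log2 changes of −0.12 and 0.21 did not pass. When all libraries were scaled to an equal total, 3 members passed upward and 3 downward, and SMAD2 (−0.36), SMAD3 (−1.46) and TGIF1 (−0.61) were the latter. That scaling moved the median of all genes to −0.20. Under quantile normalization it was 3 upward and 1 downward, TGIF1 (−0.43, adjusted p = 0.0324).

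The rest of the pathway was read from lists of 12 ligands and receptors, 15 other transducers and modulators, and 12 direct targets, which were chosen with earlier results of these data known. CCN2, JUNB and SNAI1 were not analysed here. Of these 39 genes, 14 rose and 2 fell with TGF-β, and 23 did not pass (13 and 4 with equal library totals). Among direct targets 6 of 12 rose and 0 fell. COL1A1 rose by 4.18 (SE 0.86, adjusted p = 0.00324), from 11919 and 532 to 46598 and 45007. Against WT replicate 2 alone the rise was 6.43, and against WT replicate 1 alone it was 1.94. LDLRAD4, which binds SMAD2 and SMAD3, went from 2.46 and 0 to 31.5 and 21.7 (log2 change 3.87, adjusted p = 0.0412), and did not pass without WT replicate 2 or either TGF-β library (adjusted p = 0.11 to 0.262) or with a pseudocount of 0.5 (adjusted p = 0.0672). The type I receptor gene TGFBR1 rose by 1.56 (adjusted p = 2.97e-04) and the ligand TGFB1 by 0.99 (adjusted p = 7.53e-04), while the type II receptor gene TGFBR2 fell by 0.37 (adjusted p = 1.03e-04). The ubiquitin ligase NEDD4L fell by 1.15 (adjusted p = 2.16e-05). ID1, a target of the BMP branch, changed by −0.57 and SMAD1, a transducer of that branch, by 1.42, and neither passed.

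**Figure D2:**
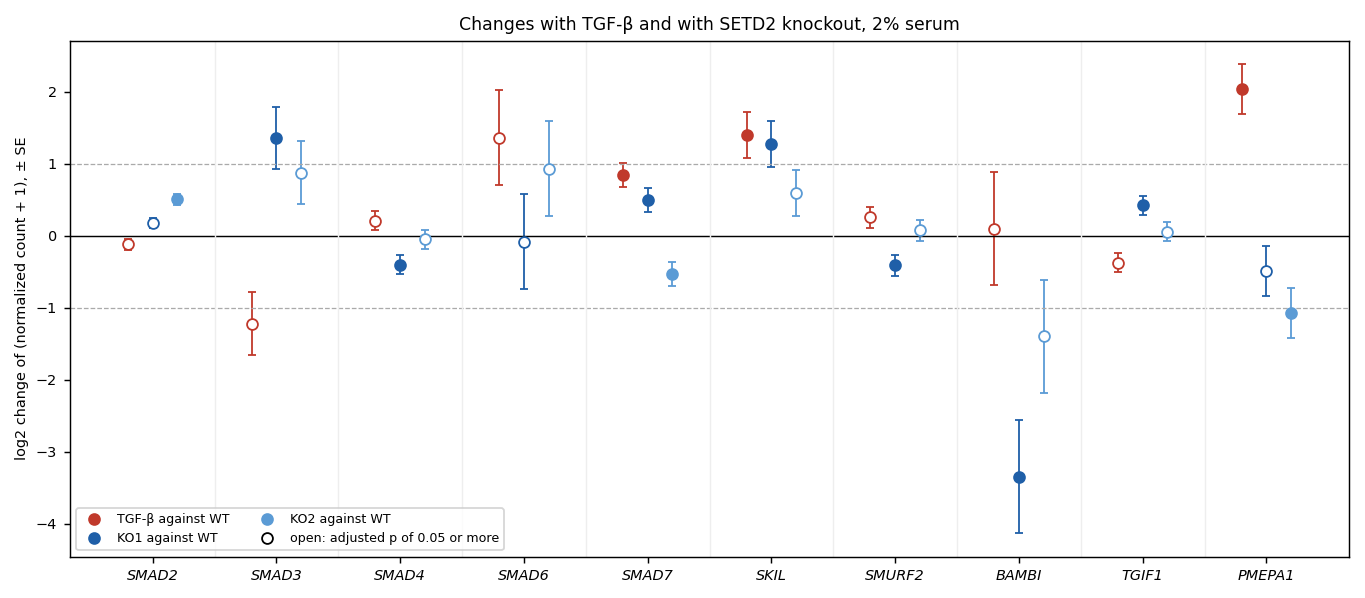
Log2 change of normalized count plus 1 (vertical axis, ± SE) of the 10 genes for TGF-β, KO1 and KO2, each against the same 2 WT libraries. Filled points passed at an adjusted p under 0.05 and dashed lines mark a change of 1. PMEPA1 stands at 2.03 for the ligand, at −0.49 for KO1 and at −1.08 for KO2.

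Whether loss of SETD2 moved the same genes was read from each KO clone against WT. These comparisons share the WT libraries with each other and with TGF-β, so the values are given side by side and no overlap between them is taken as a result. In KO1, 4 members rose (SMAD3, SKIL, SMAD7 and TGIF1) and 3 fell (SMAD4, SMURF2 and BAMBI). These 7 of 10 stand beside 39.8% of all genes that passed, and the 3 called (BAMBI, SMAD3 and SKIL) beside 25% of all genes called. In KO2, SMAD2 rose and SMAD7 and PMEPA1 fell, 3 of 10 beside 28.9% of all genes, with 1 called (PMEPA1) beside 16.3%. The members' median log2 changes were 0.05 in KO1 and 0.06 in KO2.

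Of the receptor-activated pair, SMAD3 had 728 and 742 normalized counts in KO1 and 589 and 470 in KO2, beside 145 and 566 in WT. The KO1 libraries lay above both WT libraries, and the KO2 libraries lay on either side of WT replicate 2. The log2 change in KO1 was 1.36 (SE 0.44), 2.56-fold, with an adjusted p of 0.0222. For KO2 it was 0.88 (adjusted p = 0.157). The difference between the clones of 0.48 did not pass (adjusted p = 0.509). The KO1 change was 0.38 without WT replicate 1 (adjusted p = 0.37) and 2.34 without WT replicate 2, and the KO2 change was −0.11 and 1.86. It also missed the threshold in KO1 without either KO1 replicate (adjusted p = 0.0646 and 0.0808).

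SMAD2 had 2330 and 2395 in KO1 and 3026 and 2918 in KO2, beside 2018 and 2173 in WT. Its KO2 libraries were well above the others and the spread within each group was small. SMAD2 rose in KO2 by 0.50 (SE 0.07) on the log2 scale, 1.42-fold, with an adjusted p of 6.62e-05, and it passed without any of the 4 libraries in turn. In KO1 the change of 0.17 did not pass (adjusted p = 0.0669). KO1 was 0.33 lower than KO2 (adjusted p = 0.00533).

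SMAD4, the partner of both, had 1138 and 1015 in KO1 and 1336 and 1405 in KO2, beside 1268 and 1589 in WT. KO1 was the lowest of the 11 groups. The change in KO1 was −0.40 (SE 0.13, adjusted p = 0.0227). For KO2 it was −0.05 and did not pass. Without WT replicate 2 or without KO1 replicate 2 the KO1 change did not pass, at −0.24 and −0.32 (adjusted p = 0.229 and 0.143).

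SMAD7 went opposite ways in the clones. It had 1665 and 2113 in KO1 and 797 and 1051 in KO2, beside 1512 and 1161 in WT. Both KO1 libraries lay above WT and both KO2 libraries below it. In KO1 the log2 change was 0.50 (SE 0.17, adjusted p = 0.0252). For KO2 it was −0.53 (adjusted p = 0.0241). The difference between the clones was 1.03 (SE 0.17), 2.05-fold, with an adjusted p of 5.76e-04, and the change in KO1 was 0.39 under quantile normalization (adjusted p = 0.076) and 0.09 once library totals were made equal (adjusted p = 0.682). The KO1 change was 0.31 without WT replicate 2 and 0.33 without KO1 replicate 2, the KO2 change was −0.34 without WT replicate 1 and −0.33 without KO2 replicate 1, and none of these passed. The difference between the clones passed without each of the 4 libraries in turn, at 0.84 to 1.23.

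SKIL had 933 and 728 in KO1 and 586 and 451 in KO2, beside 326 and 353 in WT. All 4 KO libraries were above both WT libraries. It rose in KO1 by 1.28 (SE 0.32), 2.42-fold, with an adjusted p of 0.00496, and it stayed past the threshold without any of the 4 libraries in turn. The KO2 change of 0.60 did not pass (adjusted p = 0.189), and the difference between the clones of 0.68 did not pass either (adjusted p = 0.171).

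PMEPA1, the member with the largest change after TGF-β, did not rise in either clone. It had 1257 and 1614 in KO1 and 1109 and 814 in KO2, beside 2656 and 1513 in WT. The KO2 libraries lay below both WT libraries, by −1.08 on the log2 scale (SE 0.35, adjusted p = 0.0303), and the KO1 change was −0.49 (adjusted p = 0.289). Without WT replicate 1 the changes were −0.67 in KO2 (adjusted p = 0.261) and −0.09 in KO1. Without KO2 replicate 2 the KO2 change was −0.85 (adjusted p = 0.192), so the call needs both libraries.

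TGIF1 had 3586 and 2671 in KO1 and 2420 and 2363 in KO2, beside 1977 and 2687 in WT. KO1 replicate 2 was inside the WT range. The KO1 change of 0.42 (SE 0.13, adjusted p = 0.0182) became 0.20 without WT replicate 1 and 0.21 without KO1 replicate 1, and neither passed. SMURF2 had 538 and 422 in KO1 and 661 and 673 in KO2, beside 688 and 583 in WT, with a change of −0.41 in KO1 (adjusted p = 0.0352) that did not pass once WT replicate 1 (−0.29) or KO1 replicate 2 (−0.23) was left out. SMAD6 had 62.8 and 12.99 in KO1 and 84.6 and 41.5 in KO2, with log2 differences between replicates of 2.19 in KO1 and 1.01 in KO2 beside 1.43 in WT, and passed in neither.

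BAMBI had 3.82 and 0 normalized counts in KO1 and 9.60 and 5.77 in KO2, beside 26.01 and 17.5 in WT. All 4 KO libraries lay below both WT libraries. The fitted log2 change in KO1 was −3.35 (SE 0.79, adjusted p = 0.00334) with a pseudocount of 1, −3.89 with 0.5 and −1.99 with 5, so its size depends on the pseudocount and no fold is given. Without KO1 replicate 2, the library at 0, the adjusted p was 0.0511. In KO2 the change of −1.40 did not pass (adjusted p = 0.215).

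The split of directions in KO1 depended on the scaling. When all libraries were scaled to an equal total, which moved the median of all genes to −0.39, 1 member passed upward (SKIL, 0.87) and 5 downward, in place of 4 and 3. With quantile normalization it was 2 upward and 3 downward. In KO2 the split of 1 upward and 2 downward stood under both scalings.

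**Figure D3:**
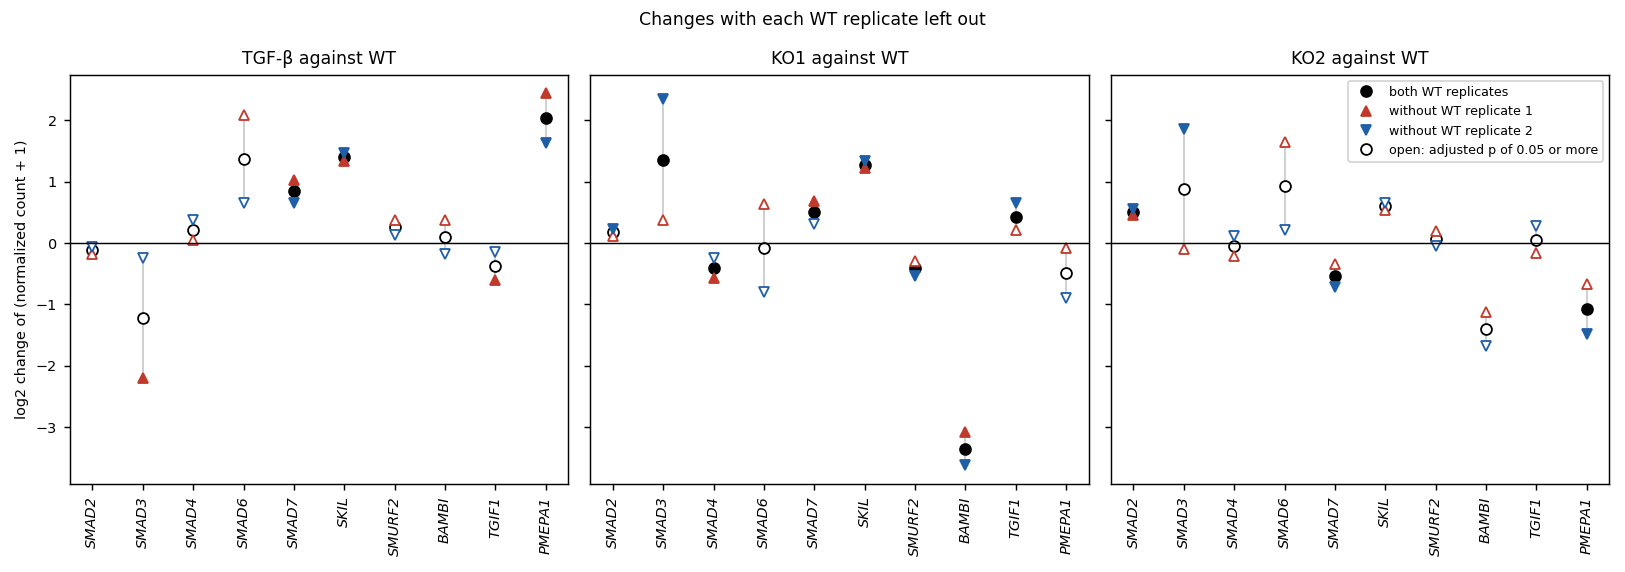
Log2 change of normalized count plus 1 (vertical axes) for TGF-β, KO1 and KO2 against both WT replicates (circles) or without WT replicate 1 or 2 (triangles). Filled points passed at an adjusted p under 0.05. SMAD3 moves most, from −2.20 to −0.24 with TGF-β and from 0.38 to 2.34 in KO1, while SKIL stays between 1.22 and 1.46 in both.

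Set beside the lists, 10 of the 39 pathway genes rose and 9 fell in KO1, and 9 rose and 9 fell in KO2. With the same total for every library these splits were 6 and 11 and 4 and 11. Direct targets went both ways, 5 up and 5 down of 12 in KO1 and 4 and 4 in KO2. ID1 was at 0 in both KO1 libraries and at 3.07 and 5.94 in KO2, beside 73.8 and 96.7 in WT. That is at least 28.4-fold lower in KO1, counting 3 per library for 0, and a log2 change of −4.01 in KO2 (adjusted p = 5.38e-06). COL4A1, a collagen gene, had log2 changes of −5.92 and −3.74 (adjusted p = 4.99e-04 and 0.0177), where WT replicate 1 alone was high (5934 and 125). Without WT replicate 1 they were −3.15 and −0.96, and the KO2 change did not pass then (adjusted p = 0.136) or without either KO2 library (adjusted p = 0.0573 and 0.0895). The coreceptor gene ENG rose by 4.23 in KO1 and 3.40 in KO2, from 7.03 and 3.96 to 62.5 to 160 (adjusted p = 5.24e-07 and 8.12e-06). ANGPTL4 rose by 6.06 in KO1 to 400 and 358, and TSC22D1, a leucine zipper gene induced by TGF-β, by 3.67 in KO1 and 2.73 in KO2. TGFBR2 rose in both clones, by 1.11 in KO1 (adjusted p = 1.72e-10) and by 0.90 for KO2 (adjusted p = 3.77e-09). TGFB1 rose by 0.61 in KO1 (adjusted p = 0.0103) but fell by 0.52 in KO2 (adjusted p = 0.0313), which are the directions of SMAD7 as well. It did not pass in KO1 without WT replicate 2 (adjusted p = 0.156), nor in KO2 without WT replicate 1 or KO2 replicate 2 (adjusted p = 0.345 and 0.21). TGFBR1 changed by 0.61 and 0.72 and passed in KO2 only (adjusted p = 0.052 and 0.0319), a difference between clones of −0.11 that did not pass. In KO2 it no longer passed without any 1 of the 4 libraries (adjusted p = 0.0711 to 0.136). SMAD1 changed by 1.22 and 1.30 and passed in neither.

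SETD2 loss and ligand were then set against each other directly, as the mean of both KO clones against the TGF-β libraries. The means compared do not use the WT libraries. The SEs and p-values do, through the spread estimated over all groups. Of the 10 members, 3 were higher in KO (SMAD2, SMAD3 and TGIF1) and 5 lower (PMEPA1, SMAD7, BAMBI, SMAD4 and SMURF2). These 8 stand beside 36.3% of all genes, and the 3 called (PMEPA1, SMAD3 and BAMBI) beside 20.2%. The split was the same under both other scalings, and the median log2 difference was −0.45 over the members and −0.02 over all genes.

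PMEPA1 at 814 to 1614 in the 4 KO libraries was far below its 8063 and 8378 with TGF-β, a log2 difference of −2.82 (SE 0.30, adjusted p = 3.1e-06). SMAD7 at 797 to 2113 was below 2310 and 2436, a difference of −0.86 (SE 0.14, adjusted p = 2.3e-04). The clones were unlike for SMAD7, with KO1 at 1665 and 2113 nearer to the TGF-β libraries than KO2 at 797 and 1051. That difference between clones does not enter the SE or the p-value. SMAD3 at 470 to 742 was above 156 and 95.5, a difference of 2.34 (SE 0.38, adjusted p = 1.66e-04) that was 1.99 to 2.69 without each library in turn.

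TGIF1 was 0.61 higher (adjusted p = 5.74e-04) and SMAD2 0.46 higher in KO (adjusted p = 2.95e-05). SMAD4 was lower by 0.43 and SMURF2 by 0.42 (adjusted p = 0.00678 and 0.0158), and both missed the threshold without 1 of the TGF-β libraries (adjusted p = 0.0522 and 0.132). BAMBI was lower by a fitted 2.47 (adjusted p = 0.0104), which also missed the threshold without either TGF-β library (adjusted p = 0.0565 and 0.0702). SKIL (−0.46) and SMAD6 (−0.94) did not pass. Of the 39 other pathway genes 6 were higher and 17 lower, with COL4A1 at −4.74, TSC22D1 at 2.58 and the activin receptor gene ACVR1B at 2.39. ACVR1B did not pass without KO1 replicate 2, KO2 replicate 1 or either TGF-β library (adjusted p = 0.0676 to 0.228). ID1 was lower, at 0 to 5.94 in the KO libraries against 49.7 and 64.8 with TGF-β, and no fold is given because both KO1 libraries are at 0.

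How far the clones differed was read from KO1 against KO2. SMAD7 was higher in KO1, and SMAD2 and SMURF2 were lower, which is 3 of 10 beside 16% of all genes, with 1 called beside 6.97%. SMURF2 differed by −0.48 (SE 0.14, adjusted p = 0.0345), and this was lost without KO1 replicate 2 or either KO2 replicate. SMAD4 differed by −0.35 and did not pass (adjusted p = 0.083), but it did under quantile normalization (−0.39) and with the same total (−0.53), which made it 3 lower in place of 2. Among the other pathway genes 7 were higher and 2 lower in KO1, and TGFB1 differed by 1.13 (adjusted p = 3.61e-04). With equal library totals 3 were higher and 6 lower, and under quantile normalization 4 and 2.

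The libraries labelled KO2 rescue grew in 2% serum like KO2 and had less SETD2 RNA than KO2. SMAD2 was lower in them and SMURF2 higher, 2 of 10 beside 10.3% of all genes, with 0 called beside 4.17%. At an unadjusted p under 0.05 there were 3. SMAD2 had 2333 and 2112 against 3026 and 2918 in KO2, a log2 change of −0.42 (SE 0.07, adjusted p = 0.00114). SMURF2 had 1046 and 911 against 661 and 673, a change of 0.55 (adjusted p = 0.0248) that missed the threshold when each of the 4 libraries was left out. SMAD3 had 252 and 290 against 589 and 470, and its change of −0.96 did not pass (adjusted p = 0.212). Of the 39 other pathway genes 3 rose and 4 fell, with ENG at 2.87, TGFB2 at 1.59, TSC22D1 at −1.28 and TGFBR2 at −0.88.

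**Figure D4:**
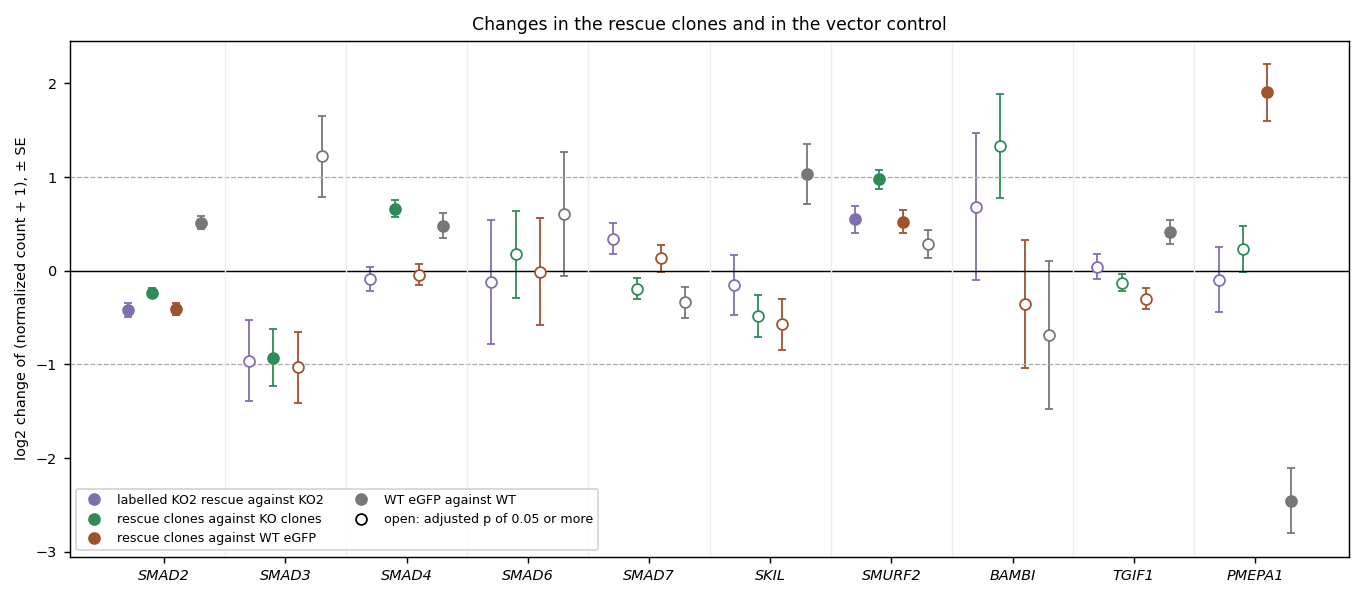
Log2 change of normalized count plus 1 (vertical axis, ± SE) for the labelled KO2 rescue against KO2, the rescue clones against the KO clones and against WT eGFP, and WT eGFP against WT. Filled points passed at an adjusted p under 0.05. SMURF2 is above 0 in all 4 comparisons and PMEPA1 is 1.902 higher in rescue than in eGFP.

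Restoring SETD2 was read from the mean of Rescue1 and Rescue2 against the mean of both KO clones. They also differ in serum (10% against 2%), vector and blasticidin selection, so that SETD2 cannot be told apart from these. SMURF2 and SMAD4 rose and SMAD3 and SMAD2 fell, 4 of 10 beside 45.7% of all genes. None was called, beside 23.3% of all genes, with 5 at an unadjusted p under 0.05.

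SMURF2 had 987, 1200.4, 1060 and 1207 in the 4 rescue libraries and 422 to 673 in the 4 KO libraries. The groups stood apart with no overlap, and the log2 change was 0.98 (SE 0.10), 1.97-fold, with an adjusted p of 1.7e-06. SMAD4 had 2138, 2029, 1861 and 1690 against 1015 to 1405, a change of 0.66 (SE 0.09, adjusted p = 2.83e-05). Both passed under every alternative run. SMAD3 had 451, 283, 348 and 256 against 470 to 742, a change of −0.93 (SE 0.31, adjusted p = 0.023), with no overlap between the groups. It missed the threshold without KO1 replicate 2, KO2 replicate 1, Rescue1 replicate 2 or Rescue2 replicate 2 (adjusted p = 0.0519 to 0.0922), against KO2 alone (−0.69, adjusted p = 0.185) and with the same total (−0.53, adjusted p = 0.181).

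SMAD2 had 2394, 2353, 2164 and 2109 against 2330 to 3026, a change of −0.23 (adjusted p = 0.00144) with overlapping groups. Against KO1 alone it was −0.07 (adjusted p = 0.393). It turned to 0.16 once library totals were made equal, which moved the median of all genes to 0.37 and gave 6 members upward and 0 downward. BAMBI (1.33), PMEPA1 (0.23), SKIL (−0.48), SMAD7 (−0.19), SMAD6 (0.17) and TGIF1 (−0.13) did not pass. Of the 39 other pathway genes 11 rose and 13 fell (16 and 7 with the same total). ID1 and ID3 rose. ID1 had 68.7 to 157 in rescue and at most 5.94 in the KO libraries, ID3 had 12.7 to 67.1 and at most 3.76, and no fold is given because KO libraries of both are at 0. The log2 change was −5.16 for ANGPTL4, −2.37 for CDKN2B, −1.24 for TGFBR1 and −0.69 for TGFBR2, and each of these passed.

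The rescue clones and WT cells with eGFP share 10% serum and a lentiviral vector. They differ in selection, with blasticidin for the rescue clones and puromycin for eGFP. The rescue lines are also single clones made from edited KO cells, while the eGFP line was selected in bulk. SETD2 cannot be told apart from these differences. In rescue, PMEPA1 and SMURF2 were higher and SMAD2 lower, 3 of 10 beside 29.5% of all genes, with 1 called beside 13.1%. PMEPA1 had 1748, 1471, 1175 and 1154 in rescue and 346 and 385 with eGFP. All 4 rescue libraries stood above both, with a log2 difference of 1.902 (SE 0.30), 3.74-fold, and an adjusted p of 2.28e-04. For PMEPA1 the eGFP line had the lowest mean of the 11 groups, at 365. The other transduced WT lines in 10% serum had means of 541 (PRRX1), 888 (SOX2) and 889 (OCT2), and rescue was not tested against them. SMURF2 differed by 0.52 (SE 0.13, adjusted p = 0.00534) from 823 and 724 with eGFP, which missed the threshold without eGFP replicate 2 (adjusted p = 0.0757), and SMAD2 by −0.41 (SE 0.06, adjusted p = 1.44e-04) from 3181 and 2812. SMAD3 differed by −1.03 from 615 and 727 with eGFP and did not pass (adjusted p = 0.0529). SMAD4, which was higher in rescue than in the KO clones, differed from eGFP by −0.04 and did not pass (adjusted p = 0.816). SETD2 itself was 1.75 higher in rescue than with eGFP on the log2 scale (adjusted p = 3.54e-11). Of the 39 other genes 3 were higher and 10 lower, with ENG at 3.26, TGFBR1 at −1.20 and ID3 at −2.55, which did not pass without eGFP replicate 1 (adjusted p = 0.088). ID2 was lower, at 0 in 3 rescue libraries and 3.37 in the other, against 37.7 and 67.03 with eGFP. Between Rescue1 and Rescue2 0 of the 10 members passed, beside 1.52% of all genes, and 1 had an unadjusted p under 0.05.

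The eGFP line against untransduced WT compares 10% serum, the vector and puromycin selection with 2% serum and no vector, which cannot be told apart. PMEPA1 fell, and SKIL, SMAD2, SMAD4 and TGIF1 rose, 5 of 10 beside 26.6% of all genes, with 2 called beside 12.7%. PMEPA1 went from 2656 and 1513 to 346 and 385, or −2.45 on the log2 scale (SE 0.35, adjusted p = 1.01e-04). Leaving out WT replicate 1 gave −2.05 and leaving out WT replicate 2 gave −2.86. With PMEPA1 at 287 to 940 in all 8 transduced libraries and 8063 and 8378 after TGF-β, the series spanned 22.5-fold between its lowest and highest group means.

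SKIL went from 326 and 353 to 585 and 823, a change of 1.03 (SE 0.32, adjusted p = 0.0266) that missed the threshold without WT replicate 1 (adjusted p = 0.107) or WT replicate 2 (0.0732) or eGFP replicate 2 (0.184). SMAD2 went from 2018 and 2173 to 3181 and 2812, a change of 0.51 (SE 0.07, adjusted p = 8.01e-05) that held without each library in turn. SMAD4 rose by 0.48 (adjusted p = 0.012) and TGIF1 by 0.41 (adjusted p = 0.0312), and both missed the threshold without WT replicate 1 or eGFP replicate 1. TGIF1 also missed it without eGFP replicate 2 and under both other scalings (adjusted p = 0.0773 and 0.0685). SMAD3 was at 615 and 727 beside 145 and 566, a change of 1.22 that did not pass (adjusted p = 0.0516). Of the 39 other genes 8 rose and 5 fell, with ENG at 2.50, TGFBR2 at 0.89, ID3 at 3.19, ID1 at 1.48, TGFB1 at −0.48 and COL1A1 at −2.54. ID3 did not pass without WT replicate 1 or eGFP replicate 1 (adjusted p = 0.0562 and 0.0513). ID1, TGFB1 and COL1A1 did not pass without WT replicate 1 (adjusted p = 0.116, 0.456 and 0.452) or without either eGFP library.

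SOX2, OCT2 and PRRX1, transcription factors that the study expressed in WT cells, were each compared with eGFP at the same serum. In each comparison 0 of 10 members passed by limma, beside 0.0206% of all genes for SOX2, 0.0411% for OCT2 and 0.048% for PRRX1. At an unadjusted p under 0.05 there were 3 members for SOX2, 1 for OCT2 and 1 for PRRX1. PMEPA1 had 940 and 837 with SOX2, 840 and 939 with OCT2 and 794 and 287 with PRRX1, beside 346 and 385 with eGFP. The SOX2 and OCT2 libraries lay above both eGFP libraries, and the PRRX1 libraries lay on either side. The log2 changes were 1.28 (SE 0.35) with SOX2 and 1.28 with OCT2, and did not pass over all genes (adjusted p = 0.402 and 0.411). BAMBI had 51.6 and 29.3 with OCT2, the highest of the series, beside 11.6 and 14.2 with eGFP, and its change of 1.53 did not pass (adjusted p = 0.754).

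Across the 11 groups each gene had its own order of levels. For SMAD7 the group means ran from 924 in KO2 to 2373 with TGF-β. Neighbours in this order did not overlap from SOX2 to KO1, from KO1 to TGF-β and from OCT2 to PRRX1. At the last of these steps the nearest libraries were at 1221 and 1224. How often neighbouring groups of 2 libraries separate over all genes was not counted, so overlap is given for each gene as a description only. For PMEPA1 the order ran from 365 with eGFP to 8220.2 with TGF-β, for SMAD3 from 126 with TGF-β to 923 with SOX2, for TGIF1 from 1780.1 with TGF-β to 3289 with SOX2, and for SMURF2 from 480.0 in KO1 to 1133 in Rescue2. For SMAD6 and SKIL no neighbouring groups were free of overlap. SMAD2, TGIF1 and SMAD4 varied least, with 1.56-fold, 1.85-fold and 1.94-fold between the lowest and highest group means, and PMEPA1 and BAMBI most.

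The gene whose level over the 22 libraries was most like each member is given as a description, from 8275 or 8276 genes with a mean of at least 100 normalized counts (Pearson's r of log2 values, over libraries that share groups and serum). For SMAD7 it was TGFB1 (0.88) and for PMEPA1 it was FURIN (0.90), a protease that processes TGF-β precursors. For SMAD3 it was PAX8 (0.93), the kidney lineage factor, and SMAD3 and TGIF1 had a correlation of 0.91 with each other. For SMAD2 it was SLCO2B1 (0.90), for SMAD4 MYO1E (0.94), for SMURF2 ACTR2 (0.90), for TGIF1 TRERF1 (0.91), for SKIL EMSY (0.81), for BAMBI PADI1 (0.81) and for SMAD6 LINC02693 (0.74).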

How the data were processed

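Polyadenylated RNA of 22 RPTEC libraries was sequenced from a stranded kit. According to the authors' methods and the submitters' processing notes, reads were quantified with Salmon 1.9.0 against cDNA sequences of Ensembl release 94 (GRCh38), then normalized with DESeq2 1.26.0. The deposited values are log2 values on a variance-stabilized scale made by the authors, with the same lowest value of 11.3188 in every library and a highest value of 21.2779, although the methods do not name that step. They were turned back into normalized counts with the inverse of that transformation, fixed by the lowest value, which assumes its usual form. Raw read depth is therefore not known here. A count test had been considered, and because the values are not raw counts a log-scale test was used.

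For each of the 14585 genes that reached 10 normalized counts in 2 or more libraries, log2(normalized count + 1) was fitted with limma 3.58.1 in R 4.3.3, with a mean per group over all 22 libraries, no covariate, and a moderated test with an intensity trend. P-values were two-sided and adjusted by Benjamini-Hochberg over all genes in each of 13 comparisons. A gene passed at an adjusted p under 0.05 and was called when its log2 change also exceeded 1 in size. A fold change on this scale understates that of low genes. Gene IDs were matched to symbols for 33878 of 36859 genes, and positions are from GENCODE 44. Figures were drawn with matplotlib 3.10.9 in Python 3.11.15.

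The members, the pathway and marker lists, and the rule for named genes were chosen with earlier results of these data known. The rule named all 10 members, TGFB1, TGFBR1, TGFBR2, ID1 and SMAD1, and in each comparison the pathway genes with the largest rises and falls among those called, up to a pair each way. TSC22D1 in KO1, and COL1A1 and TGFBI where the WT replicates are described, were named after their values were seen. For each member, the gene of highest Pearson correlation among genes with a mean of at least 100 was also named. Some genes of the lists enter the counts but are not reported here by name. The labels do not say that replicates are separate cultures, so p-values measure the spread between libraries of the same group, which may be technical. Where the clones were averaged, the difference between them does not enter the p-value. Other pseudocounts, filters, scalings, a replicate block, the deposited values, smaller fits and leaving out each replicate were tried.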

Additional observations from a re-analysis of the deposited data

Results flagged for a closer look

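By limma's test of KO1 against KO2, 2334 of the 14585 genes tested passed (16%). They include 3 members, and of the 39 other pathway genes 7 were higher and 2 lower in KO1. The 8 genes given here are a selection from these members and pathway genes. In these 8 genes the KO clones differed from each other, so the sizes of their changes against the shared WT libraries differed. The direction could still be the same, as TGFBR2 rose in both clones and ID1 was lower in both. SMAD7 and TGFB1 passed in opposite directions. Among the members, SMAD7 was 1.03 higher in KO1 on the log2 scale, SMAD2 differed by −0.33 and SMURF2 by −0.48. Among the other pathway genes, ANGPTL4 was 3.36 higher in KO1, TGFB1 1.13 higher and TGFBR2 0.21 higher, while ID1 had a fitted difference of −2.41 and TGFBI one of −2.71. ID1 was at 0 in both KO1 libraries, which is at least 1.501-fold lower than in KO2 when 3 counts per library stand for 0. With a pseudocount of 5 its fitted difference was −0.91 and did not pass (adjusted p = 0.109), so its size depends on the pseudocount. SMURF2 did not pass when KO1 replicate 2 or either KO2 replicate was left out. ANGPTL4 did not pass without any 1 of the 4 libraries (adjusted p = 0.105 to 0.157), TGFBI without KO1 replicate 1 or either KO2 replicate (adjusted p = 0.0988 to 0.17), and TGFBR2 without KO1 replicate 2 or KO2 replicate 2 (adjusted p = 0.0598 and 0.0727). Each KO line is 1 clone, and SETD2 itself had means of 1088 in KO1 and 1051 in KO2 (adjusted p = 0.69).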

How the results depend on the processing

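The number of members called depended most on the scale and on the size of the fit. With the deposited log2 values it was 1 for TGF-β (2 as reported), 0 for KO1 (3), 0 for KO2 (1), 1 for KO against TGF-β (3), 0 for KO1 against KO2 (1), 0 for rescue against eGFP (1) and 0 for eGFP against WT (2), on a scale whose log2 changes are smaller by construction and where 0.158% to 1.22% of all genes were called in these comparisons. With only the libraries compared it was 0 for TGF-β, 1 for KO1, 0 for KO2 and 0 for KO1 against KO2. It was 2 for rescue against eGFP and 1 for eGFP against WT. Such a fit has fewer libraries and takes the spread from the compared groups alone. For TGF-β, 0 of the 14585 genes passed in it. The shares of all genes called were then 0% (7.84% as reported), 13.1%, 11.5%, 0.00686%, 11.2% and 4.9%. With library totals made equal it was 1 for KO1, 0 for KO1 against KO2, 3 for rescue against KO (0 as reported) and 1 for eGFP against WT, beside 28.6%, 7.88%, 27.2% and 12.8% of all genes. SMAD2 in rescue against KO then reversed to 0.16 (adjusted p = 0.0202). Quantile normalization gave 0 for KO1 against KO2 and 2 for rescue against KO (6.62% and 23.3% of all genes), which was 3 against KO1 alone (26.8%). A pseudocount of 5 and a mean of at least 50 each gave 2 for rescue against eGFP (13.5% and 13.9%). Over all genes, equal totals moved the genes that passed from 2775 up and 3027 down to 1678 and 4724 in KO1, and from 3284 and 3384 to 5460 and 1957 in rescue against KO.

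Leaving out 1 replicate at a time, members called ranged from 1 to 4 for TGF-β (5.07% to 8.97% of all genes), 1 to 3 for KO1 (21.8% to 27.6%), 0 to 2 for KO2 (13.5% to 15.7%), 0 to 3 for KO1 against KO2 (4.4% to 12%), 0 to 3 for rescue against KO (21.4% to 25.2%), 1 to 2 for rescue against eGFP (9.06% to 12.9%) and 1 to 2 for eGFP against WT (8.82% to 11.9%), with the lone library of a group assumed to vary like the other groups. The deviations of same-numbered libraries correlated at −0.62 to 0.53 (median −0.01) over 55 pairs of groups, with 7 over 0.1. No pairing by replicate number common to all groups was seen, and a batch shared by some groups was not tested. With the replicate block, 2 members were called for TGF-β and 3 for KO1, as without it, and calls over all genes were 1116 against 1143 for TGF-β and 3643 against 3653 for KO1. Of the alternatives for counts of members 141 stayed within 1.5 times the reported count and 38 did not. The 141 include counts of 0 that stayed 0, as for SOX2, OCT2 and PRRX1 against eGFP. They are therefore no measure of how well the calls held. Of the alternatives for single members 462 kept direction and side of the threshold, 75 no longer passed and 1 reversed. Causes were not tested beyond those named.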
